A study of Mus musculus with 9 samples.

Results

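Chemokines and chemokine receptors were followed in the mouse macrophage line RAW264.7, whose cells turn towards osteoclasts when RANKL is added. They were taken as the gene rows whose symbol begins with Ccl, Cxcl, Ccr, Cxcr, Xcr, Cx3cl or Cx3cr and a digit, which gave 61 rows, with 57 distinct symbols, of the 23282 rows in the series. Of these, 42 were ligand rows, with 38 distinct symbols, and 19 were receptor rows. The 9 libraries formed 3 groups of 3. One group received RANKL alone at 50 ng/mL and served as the negative control. The second received RANKL at 50 ng/mL with surface proteins extracted from the dairy bacterium Propionibacterium freudenreichii MJ2 at 10 µg/mL. The third received heat-killed MJ2 at 10000000 cells/mL, and whether each of these libraries was also given RANKL is not stated in the labels. Treatment lasted 4 days, and the cells were at passage 30. There was no group without RANKL or bacterial material, and RAW264.7 is 1 transformed line from BALB/c mice, so the libraries are of 1 genetic background. The labels do not say whether replicates came from separate cultures, so p-values measure only the spread between these libraries, which may be technical.

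Chemokines are small secreted proteins that guide moving cells along a gradient. They are divided by the spacing of their first cysteines into CC, CXC, XC and CX3C families, and they act through receptors with a matching name that couple to inhibitory G proteins. Many bind several receptors, and many receptors bind several ligands. Macrophages release neutrophil- and monocyte-attracting chemokines when they sense bacterial products, whereas osteoclasts are known for the release of Ccl9 and for its receptor, Ccr1.

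The level of a gene is given as adjusted reads, that is 2 raised to the deposited log2 value, minus 1. The libraries were made from the 3′ ends of mRNA, so a longer transcript does not by design give more reads. Each library held between 5930926 and 6503682 adjusted reads. In 3 libraries (RANKL alone replicate 2, heat-killed MJ2 replicate 1 and surface proteins replicate 3) between 2454 and 3195 rows lay above 0 but under 0.5 adjusted reads, where the other 6 libraries had no such value, so counts are also given without these 3. All 8 macrophage markers on the list used reached 10 adjusted reads, and their sum lay between 21021 and 24526 in every library, although single markers moved in opposite directions. With surface proteins against RANKL alone Adgre1, Itgam and Lyz2 rose by 3.81, 3.01 and 2.48 on the log2 scale and Csf1r fell by 1.47 (limma adjusted p between 0.000226 and 0.0121), and with heat-killed MJ2 Lyz2 rose by 2.79 and Itgam by 2.26 (adjusted p = 0.0253 and 0.00164). The summed osteoclast markers differed between groups, with 20883 to 33077 adjusted reads with RANKL alone, 13806 to 16002 with heat-killed MJ2 and 5255 to 7860 with surface proteins. Single markers did not all follow this sum. Of 8 tested against RANKL alone, 6 fell past both limits with surface proteins and 3 with heat-killed MJ2. There Mmp9 was at a log2 fold change of 0.58 (limma adjusted p = 0.337). Calcr reached at most 4.93 adjusted reads. The part of these differences in the chemokine results below was not tested, and in bulk RNA fewer cells of a type and less RNA per cell cannot be told apart. Markers of T cells and neutrophils summed to at most 3.85 adjusted reads in any library, those of B cells to at most 10.7, of endothelial cells to at most 16.3 and of fibroblasts to at most 41.8.

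The ligands formed a larger and differently composed pool in both bacterial groups. Their summed level was 6445 to 9991 adjusted reads with RANKL alone, 26594 to 31594 with heat-killed MJ2 and 21109 to 30745 with surface proteins, so both bacterial groups lay above the control. Ccl9 made up 70.9% to 74.6% of the ligand reads with RANKL alone, 22.1% to 27.6% with heat-killed MJ2 and 10.9% to 17.3% with surface proteins. Cxcl2 took the opposite course, from 0.188% to 1.65% with RANKL alone to 25.5% to 37.7% with heat-killed MJ2 and 44.1% to 50.3% with surface proteins. Together Ccl9, Ccl3, Ccl4, Ccl2 and Cxcl2 supplied 95.2% to 98.1% of the ligand reads in each library. The receptors were far less abundant. Their sum was 892 to 1257 adjusted reads with RANKL alone and 973 to 1292 with heat-killed MJ2, and these ranges overlapped, whereas the 354 to 520 adjusted reads with surface proteins lay below both.

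**Figure D1:**
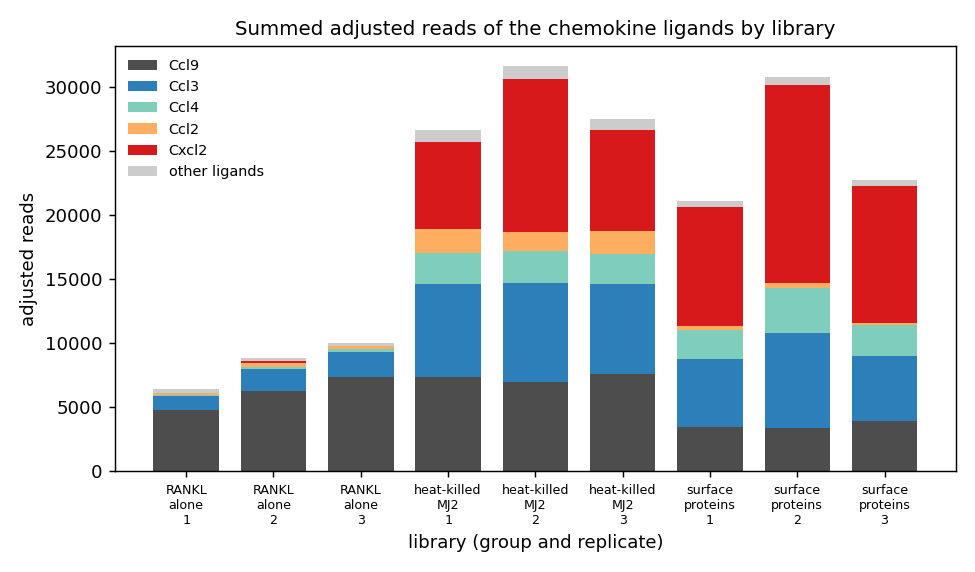
Summed adjusted reads of the chemokine ligands (vertical axis) in each of the 9 libraries (horizontal axis), split by gene. The RANKL-alone bars reach 6445 to 9991 and are mostly Ccl9, while Cxcl2 makes up 25.5% to 50.3% of each bar in both bacterial groups.

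Of the 42 ligand rows, 18 stayed under 0.5 adjusted reads in every library, 6 reached a highest value between 0.5 and 10, and 18 reached 10 or more. Of the 19 receptor rows, these numbers were 3, 4 and 12. A gene was tested in a comparison where 3 or more of the 6 libraries held 10 adjusted reads of it, which 25 of the 57 symbols did in at least 1 comparison. It passed at a limma adjusted p under 0.05, with adjustment over every gene tested, and a fold change of at least 2. Fold changes were fitted on log2(adjusted reads + 1), which understates the change of low genes.

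With surface proteins against RANKL alone, 5 of 12 tested ligands rose and none fell past both limits, while Ccl9 was lower at a limma adjusted p of 0.0316 without reaching a 2-fold change. Of the 10874 genes tested, 17.5% passed in either direction, with 10.2% that rose and 7.32% that fell. The risen ligands were Cxcl2, Ccl7, Ccl4, Ccl3 and Ccl5. Of 9 tested receptors, Ccr2 rose, and Ccr1, Cxcr3 and Cx3cr1 fell. The median log2 fold change was 1.20 for the ligands tested and -0.89 for the receptors tested, beside -0.01 over all genes tested. The libraries of the 2 groups did not overlap for 6 ligands and 5 receptors, beside 48.4% of all genes tested. Without the 3 libraries the 5 ligands again passed, and 2 receptors did.

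With heat-killed MJ2 against RANKL alone, 9 of 15 tested ligands rose and none fell by limma (also 0 lower at an unadjusted p under 0.05). RANKL is stated for the control libraries and not for those with heat-killed MJ2. A difference in RANKL and one in bacterial material therefore cannot be told apart in this comparison. Of the 10814 genes tested, 4.26% passed in either direction, with 3.37% that rose and 0.897% that fell. To the 5 ligands above came Cxcl3, Cxcl11, Ccl2 and Ccl6. Of 8 tested receptors only Cxcr5 passed, and it fell. The median log2 fold change was 2.57 for the ligands tested and -0.14 for the receptors tested, beside 0.00 over all genes tested. The 2 groups did not overlap for 11 ligands and 2 receptors, beside 30.2% of all genes tested. Cxcl3 and Ccl22 were tested only because the heat-killed MJ2 libraries held enough reads, so a difference was built into their selection. For Cxcl10, Cxcl11, Ccl7 and Cxcr2 the RANKL-alone libraries by themselves did not reach the limit for testing. Selection may therefore have a part in their differences too. Without the 3 libraries, 1 ligand (Cxcl2) and no receptor passed, in a fit of 2 libraries against 2 where 1 of 10374 genes passed in all. Leaving out heat-killed MJ2 replicate 1 by itself left 4 ligands and 81 genes, and without heat-killed MJ2 replicate 2 or replicate 3 there were 6 ligands. Without RANKL alone replicate 1, 2 or 3 the ligands numbered 7, 8 and 8. Over all genes tested 330, 347 and 300 passed in these last fits, beside 461 with every library.

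A direct comparison of surface proteins with heat-killed MJ2, which leaves out the shared control, addressed whether the preparations differed. As RANKL is stated for the surface-protein libraries and not for those with heat-killed MJ2, a difference in RANKL and one in preparation cannot be told apart here. In this comparison, 6 of 16 tested ligands were lower with surface proteins and none was higher by limma (also 0 higher at an unadjusted p under 0.05). Of the 10916 genes tested, 10.1% passed in either direction, with 4.97% lower and 5.08% higher. The lower ligands were Cxcl10, Ccl2, Ccl7, Ccl6, Ccl9 and Cxcl11, of which Cxcl11 was tested only because the heat-killed MJ2 libraries held enough reads, so that its difference was built into the selection. For Ccl6 the surface-protein libraries by themselves also fell short of the limit for testing. Of 8 tested receptors, Cx3cr1, Ccr1 and Cxcr3 were lower. The median log2 difference was -0.95 for the ligands tested and -0.81 for the receptors tested, beside 0.03 over all genes tested. The 2 groups did not overlap for 8 ligands and 5 receptors, beside 42.3% of all genes tested. Without the 3 libraries no gene passed, of the chemokines or of all 10481 genes tested. Without heat-killed MJ2 replicate 1 or replicate 3 there were 3 ligands and no receptor, and without surface proteins replicate 2 there were 4 ligands and 2 receptors. Whether these counts fell more than those over all genes was not tested.

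**Figure D2:**
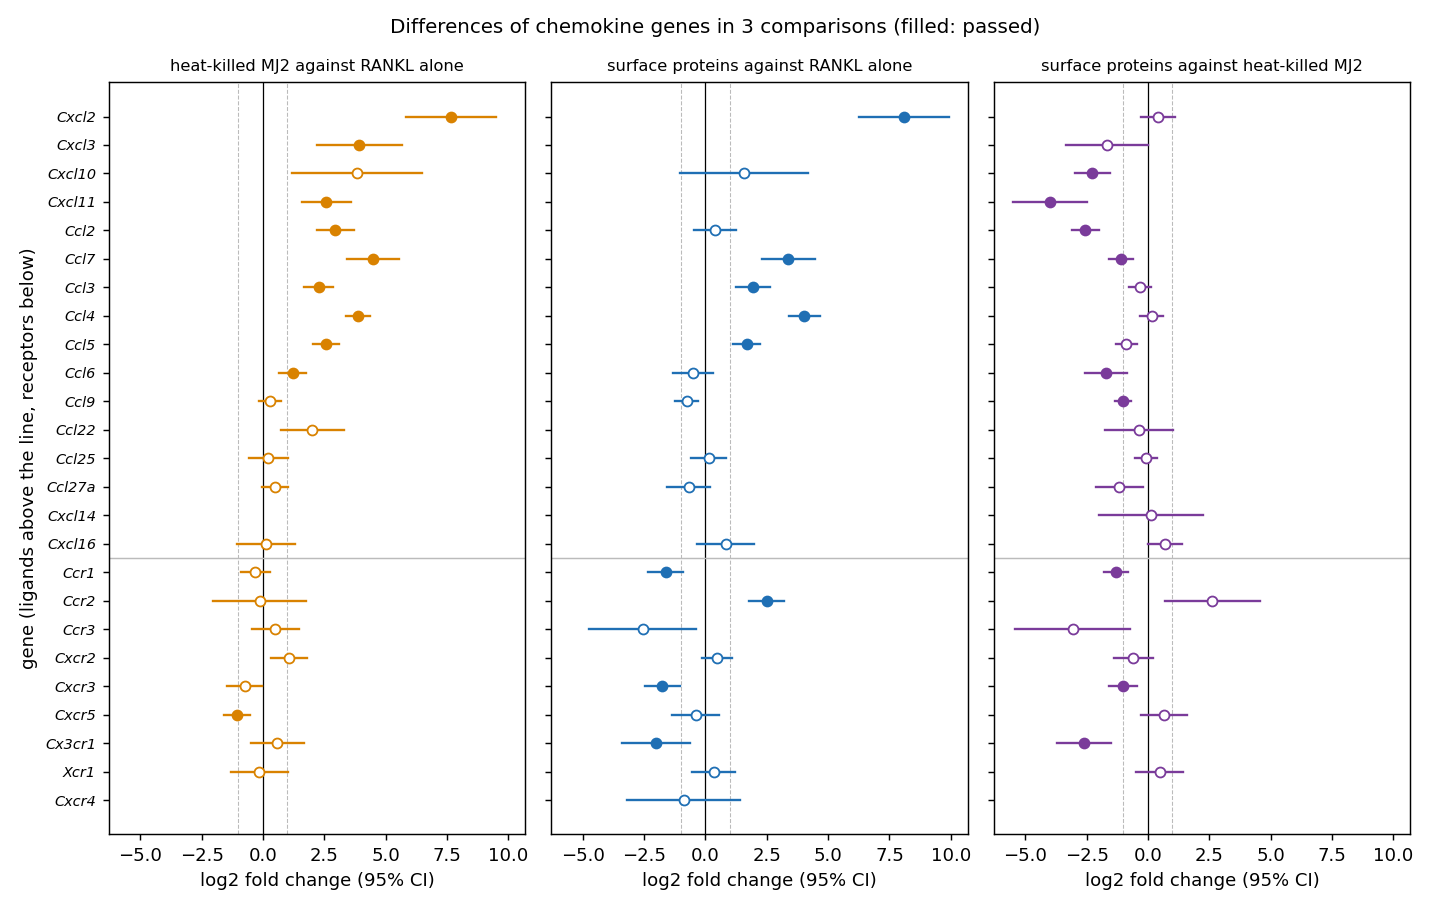
Log2 fold change with its 95% confidence interval (horizontal axis) of each of the 25 tested genes (vertical axis) in the 3 comparisons. Filled points passed the test, and dashed lines mark a 2-fold change. The filled points of ligands lie to the right of 0 in both comparisons with RANKL alone, and the 9 filled points of the last panel lie to the left.

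Cxcl2, a ligand of Cxcr2 that attracts neutrophils, showed the largest fold change of the chemokines tested in both comparisons with RANKL alone. It was at 24.3, 146 and 18.8 adjusted reads with RANKL alone, 6769, 11926 and 7896 with heat-killed MJ2 and 9299, 15456 and 10630 with surface proteins. Both bacterial groups lay above every control library, and the control spread was wide because RANKL alone replicate 2 held more than the other two. The log2 fold change was 8.10 ± 0.76 (SE) with surface proteins, about 275-fold, with an adjusted p of 0.00127. With heat-killed MJ2 it was 7.68 ± 0.76, about 206-fold, with an adjusted p of 0.00542. These calls held in every setting tried, but the size rested on RANKL alone replicate 2, without which the log2 fold changes were 9.01 with surface proteins and 8.59 with heat-killed MJ2. The preparations overlapped for Cxcl2, and the log2 difference between them was 0.42 (95% confidence interval -0.27 to 1.11, adjusted p = 0.338).

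Cxcl3, a close relative of Cxcl2 that uses the same receptor, was at 0, 3.32 and 0 adjusted reads with RANKL alone, 19.4, 50.6 and 13.7 with heat-killed MJ2 and 14.7, 8.61 and 2.31 with surface proteins. Its heat-killed MJ2 libraries lay above the controls, whereas the surface-protein libraries spread from 2.31 to 14.7. Cxcl3 rose with heat-killed MJ2 by 3.94 ± 0.72 (SE) on the log2 scale (adjusted p = 0.0335), and by 4.64 without RANKL alone replicate 2. The call was lost without RANKL alone replicate 1 (adjusted p = 0.0841), without RANKL alone replicate 3 (adjusted p = 0.0912) and with no filter on low values (adjusted p = 0.087). Surface proteins against RANKL alone was not tested for this gene, since too few libraries reached 10 adjusted reads. Cxcl1, another gene of this group on chromosome 5, was at 0 or under 0.5 adjusted reads in 8 libraries and at 6.23 in RANKL alone replicate 2. It is named here, below the limit set for untested genes, after its values were seen.

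Cxcl3, Cxcl1 and Cxcl2 lie in this order on chromosome 5. Between Cxcl3 and Cxcl1 are 101.64 kb that also hold Cxcl15, listed at 0 in every library, and Cxcl1 and Cxcl2 are 10.755 kb apart. No 75-base window in the last 500 bases of Cxcl2 or Cxcl3 was shared with another gene, so reads at their 3′ ends can be told apart. Their upstream sequences are shown because the 3 genes carry the same kappaB letters near the start site and are neighbours. The 250 bases before the transcription start, from RefSeq on GRCm38.p6, read 5′ to 3′ on the strand of the gene. Capitals mark motif matches on either strand, counted in these windows and the 50 bases that follow them.
Cxcl3, chr5:90785851-90786100, plus strand: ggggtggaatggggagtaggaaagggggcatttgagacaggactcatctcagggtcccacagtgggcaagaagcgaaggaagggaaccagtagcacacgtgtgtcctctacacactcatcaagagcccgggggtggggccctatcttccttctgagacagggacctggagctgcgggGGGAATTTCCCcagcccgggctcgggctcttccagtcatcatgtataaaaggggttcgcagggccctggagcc
Cxcl1, chr5:90890995-90891244, plus strand: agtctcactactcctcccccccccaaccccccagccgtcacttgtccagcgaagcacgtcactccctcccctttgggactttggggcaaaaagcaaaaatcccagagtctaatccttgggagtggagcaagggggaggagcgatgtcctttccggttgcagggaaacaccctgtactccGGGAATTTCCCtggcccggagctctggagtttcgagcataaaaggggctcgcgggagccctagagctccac
Cxcl2, chr5:90903649-90903898, plus strand: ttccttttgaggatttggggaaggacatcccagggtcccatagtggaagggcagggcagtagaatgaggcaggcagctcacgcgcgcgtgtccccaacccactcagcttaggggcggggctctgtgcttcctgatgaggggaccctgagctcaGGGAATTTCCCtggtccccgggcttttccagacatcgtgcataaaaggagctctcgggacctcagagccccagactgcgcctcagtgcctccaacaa
Cxcl10, chr5:92348890-92349139, minus strand: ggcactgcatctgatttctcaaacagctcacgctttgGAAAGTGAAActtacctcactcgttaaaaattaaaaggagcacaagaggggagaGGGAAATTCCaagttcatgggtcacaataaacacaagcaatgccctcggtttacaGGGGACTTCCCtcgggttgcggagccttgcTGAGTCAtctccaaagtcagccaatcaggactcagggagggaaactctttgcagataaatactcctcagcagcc
Ccl3, chr11:83649379-83649628, minus strand: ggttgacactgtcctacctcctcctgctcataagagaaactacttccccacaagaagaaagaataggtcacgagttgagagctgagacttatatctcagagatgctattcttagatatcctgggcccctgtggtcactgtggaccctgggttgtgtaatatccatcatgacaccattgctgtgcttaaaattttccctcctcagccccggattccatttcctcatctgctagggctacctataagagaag

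The kappaB consensus, the motif bound by NF-κB, was present in 8.46% of 32851 mouse promoter windows of this length and in 11 of the 48 windows found for 41 of the 57 chemokine symbols, or 22.9%. These windows were counted whether or not the gene was expressed. Of the 25 tested genes 18 had a window, and none of Ccl2, Ccl4, Ccl5, Ccl7, Cxcl11, Cxcl16 and Cxcr5 was used here. In Cxcl3, Cxcl1 and Cxcl2 the run of letters was GGGAATTTCCC in each, which holds 2 overlapping kappaB matches and starts 73, 71 and 97 bases before the start site. Cxcl10 held 3 kappaB matches, 2 of them overlapping, as well as the core of the interferon-stimulated response element, present in 3.44% of all windows and in 3 of the 48 chemokine windows (6.25%), and an AP-1 site (TGANTCA), present in 7.81% of all windows and in 10 of the 48 (20.8%). Ccl3, printed for comparison, held none of these 3 motifs. Of the other tested genes with a window, Ccl6, Ccl22, Ccl25, Ccr2, Cxcr2, Cxcr3, Cxcr4, Cx3cr1 and Xcr1 held none either. Ccr1 held 1 kappaB match, Cxcl14 held 1 interferon-stimulated response element core, and Ccl9, Ccr3 and 1 of the 3 windows of Ccl27a each held 1 kappaB and 1 AP-1 match. A match shows only that these letters are in the window. No binding was measured, and the part of these motifs in the levels was not tested.

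Cxcl10 and Cxcl11 are interferon-inducible ligands of Cxcr3, known for attracting activated T cells. Cxcl10 was at 13, 17.4 and 0 adjusted reads with RANKL alone, 68.5, 83.3 and 132 with heat-killed MJ2 and 15.6, 24 and 15.5 with surface proteins. The heat-killed MJ2 libraries lay above both other groups, which overlapped each other. Against RANKL alone the log2 fold change of Cxcl10 was 3.85 with a wide interval, 1.20 to 6.50, and did not pass (adjusted p = 0.101). RANKL alone replicate 3, which held 0 reads of the gene, set this width, and without it the fold change was 2.52 and passed (adjusted p = 0.0262). Against heat-killed MJ2, Cxcl10 was lower with surface proteins, with a log2 difference of -2.28 ± 0.29 (SE, adjusted p = 0.00995), although in 1 fit over all 9 libraries the adjusted p was 0.131. The log2 fold change with surface proteins against RANKL alone was 1.58 (-1.05 to 4.20, adjusted p = 0.315).

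Cxcl11 was at 12.1, 3.34 and 5.92 adjusted reads with RANKL alone, 53.1, 41.7 and 36.3 with heat-killed MJ2 and 5.84, 1.87 and 0.103 with surface proteins. The preparations did not overlap, with heat-killed MJ2 at 36.3 or more and surface proteins at 5.84 or less, and the log2 difference between them was the largest of the ligands tested. The rise with heat-killed MJ2 was 2.59 ± 0.41 (SE) on the log2 scale (adjusted p = 0.0229), where the RANKL-alone libraries by themselves fell short of the limit for testing. That call was lost when RANKL alone replicate 3 or any 1 of the heat-killed MJ2 libraries was left out, with adjusted p between 0.0668 and 0.0912, and with no filter it was 0.0626. The log2 difference of surface proteins from heat-killed MJ2 was -3.99 ± 0.63 (adjusted p = 0.0142), in a comparison where the gene was tested only through the heat-killed MJ2 libraries. It was -4.64 without surface proteins replicate 1 and -3.32 without surface proteins replicate 3. The mouse annotation (GENCODE M21, GRCm38) lists Cxcl11 as a polymorphic pseudogene on chromosome 5, 10.654 kb from Cxcl10. Which form of the gene the BALB/c-derived RAW264.7 cells carry was not tested. Art3, which overlaps both genes on the other strand, stayed between 0 and 10.8 adjusted reads. Cxcl9, another ligand of Cxcr3, stayed under 0.5 adjusted reads in every library.

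Ccl2 and Ccl7 attract monocytes through Ccr2 and lie 8.258 kb apart on chromosome 11. Ccl2 was at 135, 290.0 and 278 adjusted reads with RANKL alone, 1916, 1501 and 1801 with heat-killed MJ2 and 284, 388 and 227 with surface proteins. Heat-killed MJ2 stood apart, and the other 2 groups overlapped. Ccl2 rose with heat-killed MJ2 by 2.96 ± 0.32 (SE) on the log2 scale (adjusted p = 0.00726), with an adjusted p of 0.0515 without heat-killed MJ2 replicate 1. Against RANKL alone, its log2 fold change with surface proteins was 0.40 (-0.46 to 1.26, adjusted p = 0.435). The direct log2 difference of surface proteins from heat-killed MJ2 was -2.56 ± 0.23 (adjusted p = 0.00518).

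Its neighbour Ccl7 followed another pattern, at 14.9, 7.67 and 28.7 adjusted reads with RANKL alone, 384, 383 and 313 with heat-killed MJ2 and 159, 213 and 135 with surface proteins. The 3 groups were ordered without overlap, with heat-killed MJ2 highest and RANKL alone lowest. Ccl7 rose by 4.49 ± 0.43 (SE) on the log2 scale with heat-killed MJ2 (adjusted p = 0.00472) and by 3.39 ± 0.45 with surface proteins (adjusted p = 0.00389). In both comparisons its RANKL-alone libraries by themselves fell short of the limit for testing. The log2 difference between the preparations, -1.10 ± 0.21, passed narrowly (adjusted p = 0.0211). It was lost without heat-killed MJ2 replicate 1 (adjusted p = 0.0763), heat-killed MJ2 replicate 3 (0.0528) or surface proteins replicate 3 (0.054), and in 1 fit over all 9 libraries (0.0854). Ccl12, another monocyte-attracting ligand of Ccr2, was not tested. It was at 17.3 and 16.8 adjusted reads in heat-killed MJ2 replicates 1 and 3, and at most 7.61 in the other 7 libraries.

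Ccl3, Ccl4 and Ccl5 are inflammatory chemokines that attract monocytes and T cells, and Ccl3 and Ccl5 bind Ccr1. Ccl3 was at 1042, 1733 and 1949 adjusted reads with RANKL alone, 7291, 7696 and 7018 with heat-killed MJ2 and 5318, 7459 and 5038 with surface proteins. Ccl4, 13.228 kb away from it on chromosome 11, was at 126, 161 and 207 adjusted reads with RANKL alone, 2381, 2498 and 2311 with heat-killed MJ2 and 2270, 3484 and 2389 with surface proteins. For both, each bacterial library lay above each control library, and the preparations overlapped. Ccl4 had the smaller errors relative to its change, with log2 fold changes of 4.04 ± 0.26 (SE) with surface proteins (adjusted p = 0.000395) and 3.88 ± 0.20 with heat-killed MJ2 (adjusted p = 0.000375). For Ccl3 they were 1.94 ± 0.29 (adjusted p = 0.0055) and 2.27 ± 0.25 (adjusted p = 0.00792), the latter with an adjusted p of 0.0518 without heat-killed MJ2 replicate 1. The preparations differed by 0.15 for Ccl4 (-0.32 to 0.63) and by -0.33 for Ccl3 (-0.78 to 0.12) on the log2 scale, and neither difference passed (adjusted p = 0.615 and 0.26).

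Ccl5 was at 26.2, 22.8 and 15.8 adjusted reads with RANKL alone, 124, 116 and 153 with heat-killed MJ2 and 76.3, 76.8 and 59.3 with surface proteins. As for Ccl7, the groups did not overlap, with heat-killed MJ2 highest. Ccl5 rose with surface proteins by 1.69 ± 0.23 (SE) on the log2 scale (adjusted p = 0.00394) and with heat-killed MJ2 by 2.57 ± 0.22 (adjusted p = 0.00299). The log2 difference between the preparations, -0.88, had an adjusted p of 0.0254 but stayed under a 2-fold change.

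Ccl9 and Ccl6 bind Ccr1 and lie 9.245 kb apart on chromosome 11. Ccl9, the ligand that osteoclasts are known to release, was the most abundant chemokine of the control, at 4810, 6255 and 7346 adjusted reads with RANKL alone, 7336, 6974 and 7584 with heat-killed MJ2 and 3462, 3340 and 3942 with surface proteins. The surface-protein libraries lay below all others, and heat-killed MJ2 overlapped the control. Against RANKL alone the log2 fold change with surface proteins was -0.76 (-1.23 to -0.29, adjusted p = 0.0316), which did not reach a 2-fold change. Against heat-killed MJ2 it was -1.03 ± 0.13 (SE, adjusted p = 0.00995), just past a 2-fold change, and -0.98 without surface proteins replicate 2, just short of it. With heat-killed MJ2 against RANKL alone it was 0.27 (-0.18 to 0.72, adjusted p = 0.442).

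Ccl6 was at 23.4, 17.3 and 16.8 adjusted reads with RANKL alone, 38.9, 60.1 and 40.2 with heat-killed MJ2 and 8.78, 11.5 and 22 with surface proteins. The heat-killed MJ2 libraries were the highest, and the other 2 groups overlapped. Its rise with heat-killed MJ2, 1.22 ± 0.23 (SE) on the log2 scale, passed narrowly (adjusted p = 0.0355). It was lost when any 1 of the 6 libraries was left out, with adjusted p between 0.0513 and 0.0986, and with no filter on low values (0.0726), 1 fit over all 9 libraries (0.056) or trended robust variance (0.0761). The log2 difference of surface proteins from heat-killed MJ2 was -1.72 ± 0.35 (adjusted p = 0.0255), and it was lost without any 1 of the heat-killed MJ2 libraries or surface proteins replicate 2, with adjusted p between 0.0509 and 0.0774, and with no filter (0.0599). With surface proteins against RANKL alone the log2 fold change was -0.50 (-1.32 to 0.31, adjusted p = 0.305). E230016K23Rik, which overlaps Ccl6 on the other strand, was at 4.4 to 24.2 adjusted reads, a level like that of Ccl6 in the control.

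**Figure D3:**
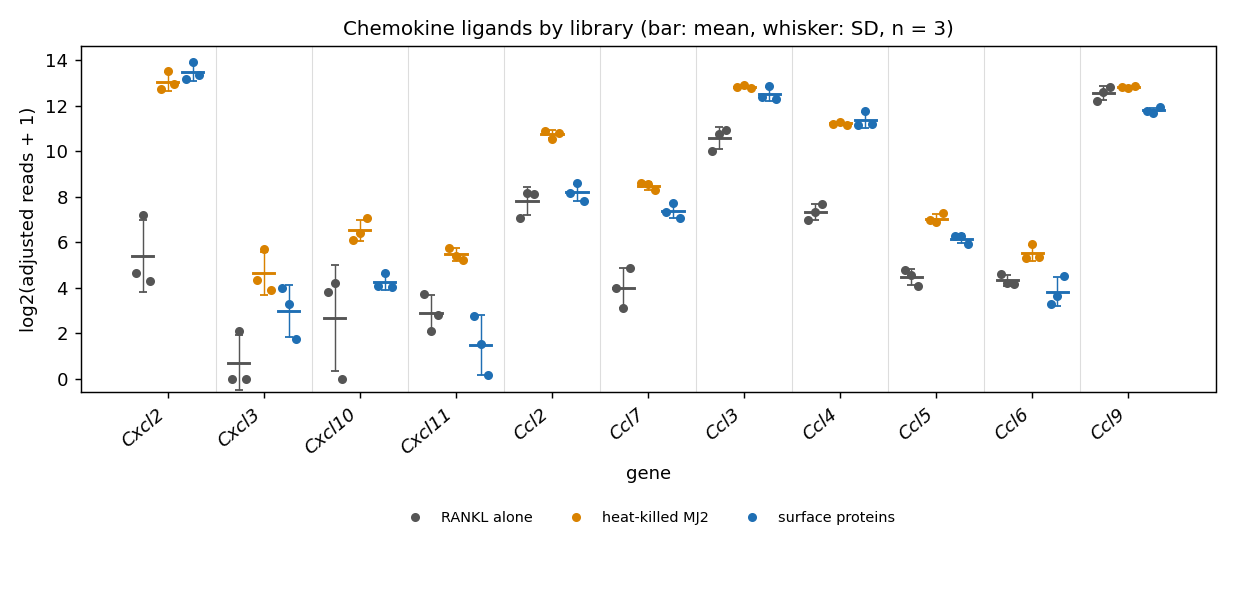
Level of the 11 named ligands on the log2(adjusted reads + 1) scale (vertical axis) by gene (horizontal axis), with 1 point for each library, the group mean as a bar and the SD as whiskers. Cxcl2, Ccl7, Ccl3, Ccl4 and Ccl5 are above the control in both bacterial groups, Ccl2, Cxcl10, Cxcl11 and Ccl6 are highest with heat-killed MJ2, and Ccl9 is lowest with surface proteins.

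A further 5 ligands were tested and did not pass in any comparison. Ccl22, which attracts cells through Ccr4, was at 1.8, 1.17 and 7.9 adjusted reads with RANKL alone, 13.3, 12.6 and 17.7 with heat-killed MJ2 and 3.89, 13.4 and 23.9 with surface proteins. Its heat-killed MJ2 libraries lay above the controls, with a log2 fold change of 2.02 (0.75 to 3.29) and an adjusted p of 0.0838, which became 0.00759 without RANKL alone replicate 3. Ccl25, the ligand of Ccr9, ranged from 17.8 to 41.9 adjusted reads over the 9 libraries, and Ccl27a, a ligand of Ccr10, from 9.76 to 54.3. The log2 fold change of Ccl27a between the preparations was -1.17 (-2.13 to -0.21, adjusted p = 0.09). Of the 75-base windows at its 3′ end, 52.4% also occur in other genes, so its level is uncertain, while the other 24 tested genes shared none. On the other strand, Ccl25 is overlapped by Elavl1 (358 to 655 adjusted reads) and Ccl27a by Il11ra1 (38.1 to 147 adjusted reads). Cxcl16, the ligand of Cxcr6, ranged from 44.5 to 208 adjusted reads with overlap between the groups. Cxcl14, tested between the preparations alone, was at 1.17 to 4.62 adjusted reads with RANKL alone, 5.77 to 22.5 with heat-killed MJ2 and 3.79 to 44.5 with surface proteins. Ccl24 was not tested and was at 10.8 adjusted reads in heat-killed MJ2 replicate 2, with 0 or under 0.5 in the other 8 libraries.

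Ccr2 was the one receptor that rose with surface proteins. This receptor for Ccl2 and Ccl7, which marks monocytes that are recruited from blood, was at 12.1, 15.2 and 19.7 adjusted reads with RANKL alone, 13.3, 47.4 and 3.89 with heat-killed MJ2 and 134, 76.9 and 73.4 with surface proteins. Each surface-protein library lay above every other library, and heat-killed MJ2 spread from 3.89 to 47.4 around the control. Ccr2 rose with surface proteins by 2.49 ± 0.29 (SE) on the log2 scale against RANKL alone (adjusted p = 0.00273), a call that held in every setting tried. It made up 15.5% to 25.8% of all chemokine receptor reads with surface proteins and 0.963% to 2.21% with RANKL alone. Against heat-killed MJ2 the log2 difference was similar in size, 2.62 (0.68 to 4.55), but did not pass (adjusted p = 0.0697). Without heat-killed MJ2 replicate 2 it was 3.46 and passed (adjusted p = 0.0178). With heat-killed MJ2 against RANKL alone it was -0.12 (-2.02 to 1.77, adjusted p = 0.944).

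Ccr1, the receptor for Ccl9, Ccl3 and Ccl5, was at 202, 278 and 384 adjusted reads with RANKL alone, 205, 243 and 227 with heat-killed MJ2 and 112, 69 and 95.6 with surface proteins. The surface-protein libraries lay below all others, and the other 2 groups overlapped. Ccr1 fell by 1.61 ± 0.29 (SE) on the log2 scale with surface proteins against RANKL alone (adjusted p = 0.0105), and without the 3 libraries the adjusted p was 0.068. Against heat-killed MJ2 the log2 difference was -1.30 ± 0.21 (adjusted p = 0.0144), with adjusted p of 0.0531 without heat-killed MJ2 replicate 1 and 0.0525 without replicate 3. The log2 fold change of Ccr1 with heat-killed MJ2 against RANKL alone was -0.31 (-0.91 to 0.29, adjusted p = 0.519).

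Cx3cr1, the receptor for fractalkine on monocytes and macrophages, had the highest level of the receptors in 7 of the 9 libraries. It was at 838, 552 and 260.0 adjusted reads with RANKL alone, 892, 560.1 and 828 with heat-killed MJ2 and 170.3, 59.4 and 175 with surface proteins. The surface-protein libraries lay below all others. Cx3cr1 fell by 2.02 ± 0.58 (SE) on the log2 scale against RANKL alone (adjusted p = 0.0434). This call was lost without RANKL alone replicate 1 (adjusted p = 0.108) or replicate 2 (0.101) and without surface proteins replicate 1 (0.0588), replicate 2 (0.0981) or replicate 3 (0.0623), as well as with no filter on low values (0.0959) or trended robust variance (0.0512). Against heat-killed MJ2 the log2 difference was -2.61 ± 0.45 (adjusted p = 0.0173), with adjusted p of 0.0652 without heat-killed MJ2 replicate 1 and 0.06 without replicate 3. The annotated Cx3cr1 locus on chromosome 9 overlaps other genes on both strands, among them Gorasp1 (143 to 205 adjusted reads) and Wdr48 (188 to 268 adjusted reads), and the counting of reads in overlaps is not given in the sources used here. Its ligand Cx3cl1 reached at most 1.06 adjusted reads.

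Cxcr3, the receptor for Cxcl10 and Cxcl11, was at 87.3, 56 and 112 adjusted reads with RANKL alone, 62.4, 38.7 and 47.1 with heat-killed MJ2 and 21.5, 20.1 and 29.7 with surface proteins. The surface-protein libraries were the lowest, and heat-killed MJ2 overlapped the control. Cxcr3 fell by 1.76 ± 0.29 (SE) on the log2 scale with surface proteins against RANKL alone (adjusted p = 0.00793) in every setting tried. The log2 difference from heat-killed MJ2, -1.02 ± 0.24, passed narrowly (adjusted p = 0.0345). Without heat-killed MJ2 replicate 1 (adjusted p = 0.0968) or replicate 3 (0.0943), or surface proteins replicate 1 (0.0765) or replicate 2 (0.1), it was lost, as it was with no filter (0.0686) or trended robust variance (0.0743), and with a constant of 2 it was -0.99, just short of a 2-fold change.

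Cxcr5, the receptor for Cxcl13, was at 35.6, 46.3 and 54.4 adjusted reads with RANKL alone, 19.5, 18.3 and 26.5 with heat-killed MJ2 and 36.2, 55.7 and 18.8 with surface proteins. Heat-killed MJ2 lay below the control, and the surface-protein libraries spread over both. It was the one receptor to pass with heat-killed MJ2 against RANKL alone, at -1.05 ± 0.22 (SE) on the log2 scale (adjusted p = 0.048). The call was lost in 13 of 21 settings and whichever of the 6 libraries was left out, with adjusted p between 0.0551 and 0.155. Bcl9l, which overlaps Cxcr5 on the other strand, was at 44.5 to 170.02 adjusted reads, above most values of Cxcr5 itself (18.3 to 55.7).

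Ccr3, a receptor known from eosinophils, was at 16.9, 17.2 and 14.8 adjusted reads with RANKL alone, 15.3, 18.4 and 46.2 with heat-killed MJ2 and 0, 0.909 and 12.1 with surface proteins. The surface-protein libraries lay below all others, yet the log2 differences were too variable to pass, at -2.56 (-4.73 to -0.39, adjusted p = 0.0771) against RANKL alone and -3.07 (-5.43 to -0.72, adjusted p = 0.076) against heat-killed MJ2. Without surface proteins replicate 3, Ccr3 passed in both, with adjusted p of 0.00548 and 0.0249. There the remaining surface-protein libraries held 0 and 0.909 adjusted reads. Ccr3 was then tested only through the other group, so a difference was built into its selection. Cxcr2, the receptor for Cxcl2 and Cxcl3, was at 15, 9.78 and 10.9 adjusted reads with RANKL alone, 33.7, 16.4 and 30.5 with heat-killed MJ2 and 12.7, 22.1 and 16.5 with surface proteins. The log2 fold change of Cxcr2 with heat-killed MJ2 was 1.07 (0.34 to 1.81, adjusted p = 0.101) and with surface proteins 0.48 (-0.13 to 1.09, adjusted p = 0.199), so neither passed beside the large rise of its ligand Cxcl2. Xcr1, the receptor for Xcl1, ranged from 8.67 to 29.7 adjusted reads and Cxcr4, the receptor for Cxcl12, from 0.955 to 24.6, and neither passed where it was tested. Ccr7, Ccr9 and Cxcr6 were not tested, and their highest levels were 11.9, 12.3 and 12.2 adjusted reads. Ccr7 and Cxcr6 reached 1 adjusted read in heat-killed MJ2 libraries only.

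**Figure D4:**
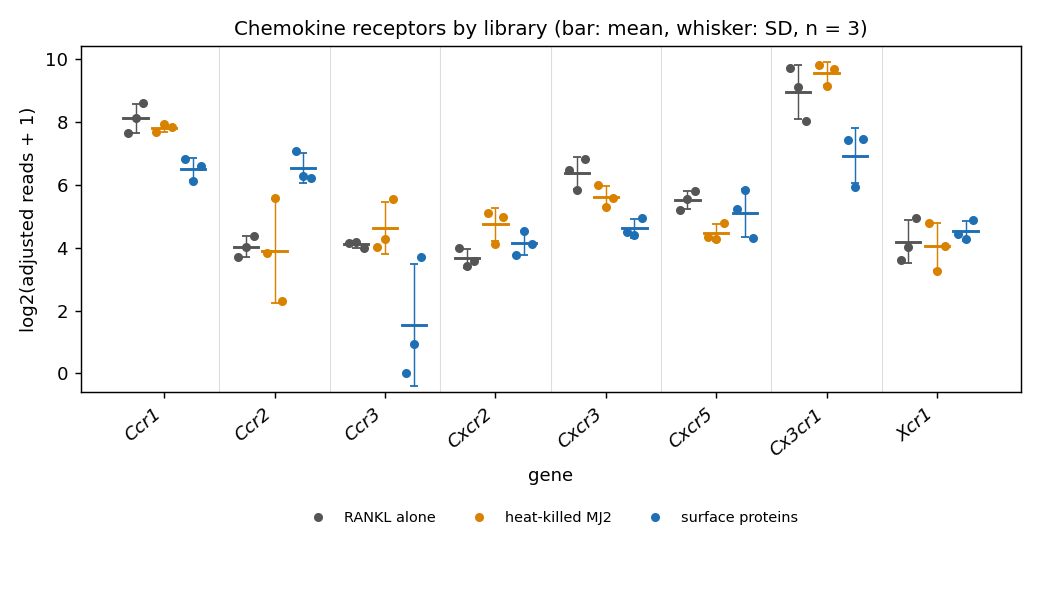
Level of 8 tested receptors on the log2(adjusted reads + 1) scale (vertical axis) by gene (horizontal axis), with 1 point for each library, the group mean as a bar and the SD as whiskers. With surface proteins Ccr1, Ccr3, Cxcr3 and Cx3cr1 are below, and Ccr2 above, every library of the other groups.

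The receptor genes Ccr1, Ccr3 and Ccr2 lie in this order on chromosome 9. Between Ccr1 and Ccr3 are 53.279 kb that also hold Ccr1l1, listed at 0 in every library, and Ccr3 and Ccr2 are 70.26 kb apart. With surface proteins against RANKL alone, Ccr1 was at a log2 fold change of -1.61, Ccr3 at -2.56 and Ccr2 at 2.49, of which the first and the last passed. On chromosome 11, Ccl9, Ccl6, Ccl3 and Ccl4 lie in that order, and with surface proteins Ccl3 and Ccl4 rose while the values for Ccl9 and Ccl6 were -0.76 and -0.50. With heat-killed MJ2, Ccl6, Ccl3 and Ccl4 rose and Ccl9 was at 0.27.

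Of 9 relatives of the chemokines that the symbol rule does not take in, 2 or 3 were tested in each comparison. Cklf, which encodes a chemokine-like factor, was the one tested gene of these with reads in every library, at 106, 106 and 109 adjusted reads with RANKL alone, 177, 169 and 190.3 with heat-killed MJ2 and 149.8, 156 and 155 with surface proteins. Both bacterial groups lay above the control, with log2 fold changes of 0.52 ± 0.12 (SE) with surface proteins (adjusted p = 0.0242) and 0.74 ± 0.12 with heat-killed MJ2 (adjusted p = 0.026), both under a 2-fold change. Ccrl2, an atypical receptor that binds chemerin without signalling, was at 3.67, 3.34 and 0 adjusted reads with RANKL alone, 10.3, 53.3 and 12.7 with heat-killed MJ2 and 16.6, 47.2 and 26.3 with surface proteins, and it rose with surface proteins by 3.39 ± 0.68 (SE) on the log2 scale (adjusted p = 0.0143). The value with heat-killed MJ2 was 2.90 ± 0.82 and did not pass (adjusted p = 0.1). Pf4, which encodes a CXC chemokine best known from platelets, was at 0, 1.17 and 0.975 adjusted reads with RANKL alone, 38.8, 13.6 and 10.8 with heat-killed MJ2 and 2.91, 31.8 and 4.49 with surface proteins. It rose with heat-killed MJ2 by 3.55 ± 0.53 (adjusted p = 0.0194), and surface proteins against RANKL alone was not tested for it. No control library held 10 adjusted reads of Ccrl2 or Pf4, so both were tested only through the bacterial libraries and a difference was built into their selection.

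Of 25 genes that act below chemokine receptors (G protein subunits, kinases, exchange factors, arrestins and regulators of G protein signalling), 1 rose, 3 fell and 21 did not pass with surface proteins against RANKL alone, 7 of them at an adjusted p under 0.05 but under a 2-fold change. The share that passed was near the 17.5% of all genes tested. Of all 10874 genes tested, 3163 had an adjusted p under 0.05, and 1902 of these also reached a 2-fold change. Vav1, an exchange factor for Rac, was at 464, 335 and 424 adjusted reads with RANKL alone, 481, 506 and 454 with heat-killed MJ2 and 1007, 1057 and 907 with surface proteins, and it rose by 1.29 ± 0.17 (SE) on the log2 scale (adjusted p = 0.00395). Rgs2 and Rgs16, which shorten G protein signals, fell by 1.85 ± 0.20 (adjusted p = 0.00213) and 2.24 ± 0.38 (adjusted p = 0.00861). Prex1, another exchange factor for Rac, fell by 1.33 ± 0.29 (adjusted p = 0.0195). With heat-killed MJ2 against RANKL alone 0 of 25 passed both limits by limma, beside 4.26% of all genes tested. Of the 25, 7 had an unadjusted p under 0.05, a limit not counted here over all genes. Of these, Rgs2 reached an adjusted p of 0.032 at a log2 fold change of -0.97, just under a 2-fold change. Over all 10814 genes tested, 636 had an adjusted p under 0.05. Between the preparations, Vav1 was higher with surface proteins (1.04 ± 0.13, adjusted p = 0.00988) and Rgs16 was lower (-1.68 ± 0.16, adjusted p = 0.00557), of 24 tested and beside 10.1% of all genes tested. The median log2 fold change of this list was 0.08 with surface proteins and -0.055 with heat-killed MJ2 against RANKL alone, and 0.08 between the preparations.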

How the data were processed

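The study sequenced RAW264.7 libraries with a 3′ mRNA kit as 75-base single-end reads. The submitters' processing notes name Bowtie2, bedtools and mm10, and by the study's methods quantile normalization between samples was applied. The authors deposited log2 values with 3 decimals for 23282 gene rows, and the exact scaling, the annotation and the strand setting of the counting are not given in the sources used here. Groups and replicate numbers came from the sample labels. From the deposited log2 values, adjusted reads were computed as 2 to the value minus 1, and comparisons were fitted with limma 3.58.1 (lmFit and eBayes) in R 4.3.3, each on its own 6 libraries, for genes that held 10 adjusted reads in 3 or more of them. Benjamini-Hochberg adjustment ran over every gene tested, and the threshold was 0.05 for the adjusted p together with a fold change of 2. With 3 libraries against 3, an exact permutation test cannot give a p below 0.1, so none was used. The code was tested on simulated data.

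Each library held 5930926 to 6503682 adjusted reads, and 0 reads of a gene allow a level of up to 3, by counting error only. Replicates differed by more than sampling noise, with a chi-square per degree of freedom of 6.90 to 18.5 within groups, and each was counted once. A symbol listed on several rows was kept as separate rows. Rows that passed in any comparison were named with every library's value, rows tested without passing by their ranges, and untested rows where a library held 10 adjusted reads. Outside this rule, and after their values were seen, Ccl22, Ccr3 and Cxcr2 were given in every library and Cxcl1, Cxcl9, Cxcl15, Cx3cl1, Ccr1l1 and Cklf were named. Gene positions came from GENCODE M21 (GRCm38) and promoter windows from RefSeq (GRCm38.p6). Alternatives changed the scaling, the filter, the constant, the variance model, the threshold, the libraries in the fit and the replicate block. The members, lists and tests were chosen with earlier results of these data known. Python 3.11.15, numpy 2.4.6, pandas 2.3.3 and matplotlib 3.10.9 were used for tables and plots.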

Additional observations from a re-analysis of the deposited data

How the results depend on the processing

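Of the 28 calls of single genes, 9 held in every setting run and 5 were lost in 1 setting, and over the 580 refits of these calls 499 kept the call, 81 lost it and 0 changed sign. With surface proteins against RANKL alone, the count of ligands was 5 in all 6 fits without 1 library, and that of receptors was 3 to 4. Over all genes 1357 to 1822 passed in these fits, beside 1902 with every library. For heat-killed MJ2 against RANKL alone, leaving out each library gave 4 to 8 ligands and 0 to 0 receptors, and for surface proteins against heat-killed MJ2 it gave 3 to 6 ligands and 0 to 4 receptors. Whether the counts of members fell more than those over all genes was not tested. A fit without RANKL alone replicate 2, heat-killed MJ2 replicate 1 and surface proteins replicate 3, chosen after the data were seen, left 2 libraries a group. It gave 2 receptors with surface proteins against RANKL alone (1217 of 10359 genes in all), 1 ligand and 0 receptors with heat-killed MJ2 against RANKL alone (1 of 10374 genes), and 0 ligands and 0 receptors between the preparations (0 of 10481 genes). Setting values under 0.5 adjusted reads to 0, also chosen after the data were seen, changed none of the 6 counts. The single receptor of heat-killed MJ2 against RANKL alone, Cxcr5, was lost (count 0) with equal library totals, no filter, a constant of 0.5, 1 fit of all 9 libraries, the replicate block, and trended robust variance, and the count was 2 with the unadjusted p. Between the preparations, receptors numbered 5 with 1 fit of all 9 libraries, 5 with the unadjusted p and 5 with quantile normalization and the unadjusted p.

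Changes of sign were seen only among genes that did not pass. Without the 3 libraries Cxcr5 was at 0.029 with surface proteins against RANKL alone and Ccl25 at 0.107 between the preparations. Leaving out 1 library spread Ccl25 from -0.186 to 0.388 (surface proteins against RANKL alone), -0.0953 to 0.478 (heat-killed MJ2 against RANKL alone) and -0.225 to 0.072 (between the preparations). With surface proteins against RANKL alone it spread Cxcr4 from -1.50 to 0.0893 and Cxcr5 from -0.76 to 0.00533. With heat-killed MJ2 against RANKL alone Cxcl16 lay between -0.36 and 0.57, Ccr2 between -0.97 and 0.68 and Xcr1 between -0.52 and 0.24. Between the preparations Cxcl14 lay between -0.63 and 0.99, Ccl22 between -0.87 and 0.30 and Ccl4 between -0.0407 and 0.27. The cause of these changes was not tested.

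Equal replicate numbers did not mark paired samples by the labels. Deviations of same-numbered libraries correlated at 0.0179 to 0.106, in each comparison more than those of any other pair. With the replicate block, the counts of ligands and receptors were 5 and 3 with surface proteins against RANKL alone, 8 and 0 with heat-killed MJ2 against RANKL alone, and 6 and 3 between the preparations, where Ccr3 (adjusted p = 0.0353) took the place of Cxcr3 (0.0564). The block also ended the calls of Cx3cr1 with surface proteins (0.065) and of Ccl6 (0.0978) and Cxcr5 (0.0643) with heat-killed MJ2, each against RANKL alone. Quantile normalization or equal totals shifted the median log2 fold change of all genes by at most 0.08. Genes under 10 adjusted reads could not be judged at this depth.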
